A study of Mus musculus with 6 samples.

Results

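Bergmann glia and other astrocytes of the cerebellum were described through 10 genes of glutamate uptake, gap-junction coupling, water transport and Bergmann glia identity, namely Gdf10, Slc1a3, Slc1a2, Hopx, Fabp7, Aqp4, S100b, Gja1, Gjb6 and Glul. They were chosen by symbol, and each matched 1 row of the 43346 gene models in the count table. RNA came from the cerebellum of mice aged 15 months, 3 Tmem106b+/+ (WT) and 3 Tmem106b-/- (KO), each genotype with 1 female (replicate 1) and 2 males (replicates 2 and 3). Tmem106b encodes a lysosomal membrane protein, and the study's title concerns Purkinje cell death and motor deficits after its loss. The labels do not say how the KO allele was made or on which strain background, nor whether the mice were littermates. The RNA was that of whole tissue, so fewer cells of a type and less RNA per cell cannot be told apart.

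Bergmann glia are astrocytes whose cell bodies lie beside the Purkinje cells and whose processes cross the molecular layer and wrap the synapses there. They clear released glutamate through sodium-driven transporters, convert part of it to glutamine, pass ions and metabolites to one another through connexin channels and help to set extracellular potassium and water. Velate astrocytes of the granular layer and fibrous astrocytes of the white matter share most of these genes, and S100b and Glul are also expressed in oligodendrocytes. None of these genes therefore marks 1 cell type alone in tissue RNA.

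Libraries held between 25245778 and 31135185 counts, and every one of the 10 genes had at least 804 counts in every library. Tmem106b, the check of the labels, averaged 245 ± 19.4 CPM in the WT mice and 66.8 ± 3.64 CPM in the KO mice (SD, n = 3 each; CPM is the level relative to the library's total count after scaling). Granule cell and Purkinje cell genes were abundant in all libraries, for example Gabra6 at 753 to 970 CPM. The pieces of tissue differed in choroid plexus: Ttr, the transthyretin gene of that epithelium, was at 46.5 CPM in WT replicate 1 and at 1487 to 4761 CPM in the other 5 libraries. WT replicate 1 is also the WT female. A code in the sample titles, TM2, is shared by WT replicate 1 and KO replicates 1 and 2, and the labels do not say what it stands for.

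No member passed the test between genotypes, and the 10 genes did not lie on 1 side of 0. Gja1, Gjb6, Aqp4 and Slc1a2 were higher in KO, fitted at 109 to 123% of WT. Slc1a3, Hopx, Gdf10 and Fabp7 were lower, fitted at 84.5 to 85.0% of WT, and Glul and S100b were at 104% and 98.3%. With p-values from the quasi-likelihood F test of edgeR, adjusted for 16934 genes by Benjamini-Hochberg, 0 of the 10 members had an adjusted p under 0.05, where 0.283% of all genes tested did. An unadjusted p under 0.05 was found for 4 members (Gja1, Hopx, Slc1a3 and Gjb6), against 8.96% of all genes. DESeq2 and limma-voom also called 0 members. The median log2 fold change of the members was 0.01, beside 0.00029 over all genes tested. In 4 of 10 members the 3 KO mice lay apart from the 3 WT mice, with Gja1 and Slc1a2 above and Slc1a3 and Hopx below, while this held for 14.1% of all genes tested (7.77% with KO above WT and 6.35% with KO below). The smallest size of a log2 fold change among the 48 genes called in the whole table was 0.43, above that of every one of the 10 genes.

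**Figure D1:**
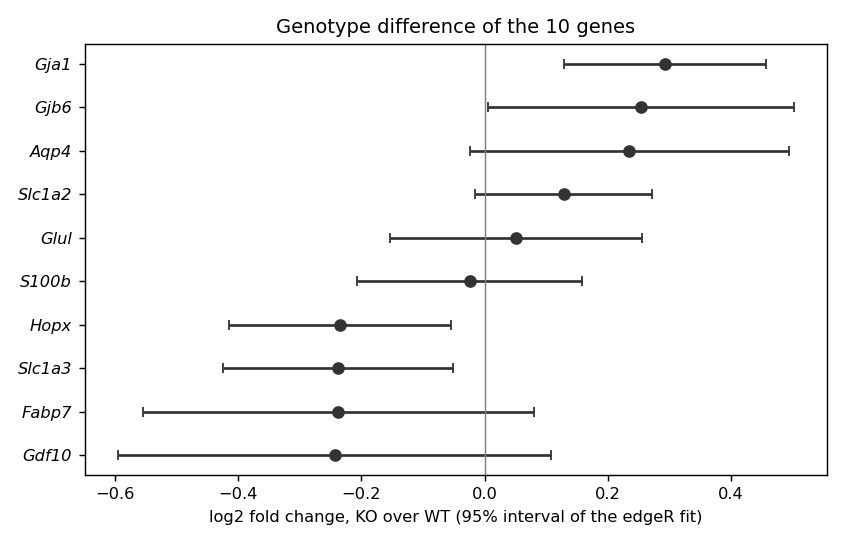
Log2 fold change of each gene, KO over WT (x axis), with the 95% interval of the edgeR fit, for the 10 genes ordered by value. The intervals of Gja1, Gjb6, Hopx and Slc1a3 leave out 0 before adjustment for the number of genes tested, and 0 of the 10 passed after it.

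Windows of 250 bases before the RefSeq start of transcription (GRCm38.p6, the assembly of mm10) are printed for members whose genotype groups lay apart and whose start lies within 43 bases of the end of the table's gene model: Slc1a3 and Hopx, with lower values in KO, and Gja1, with higher values. Capitals mark the letters of a match to any of 4 motifs searched on both strands, the TATA box as TATAAA, the NFI site as TTGGCA, the RBPJ core as TGGGAA and the SOX site as ACAATG.
Slc1a3, chr15:8710808-8711057, minus strand: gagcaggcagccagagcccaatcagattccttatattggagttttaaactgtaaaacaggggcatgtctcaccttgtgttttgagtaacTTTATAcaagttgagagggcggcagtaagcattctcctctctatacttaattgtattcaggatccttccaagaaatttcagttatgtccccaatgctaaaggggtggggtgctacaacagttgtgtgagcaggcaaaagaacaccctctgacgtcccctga
Hopx, chr5:77115124-77115373, minus strand: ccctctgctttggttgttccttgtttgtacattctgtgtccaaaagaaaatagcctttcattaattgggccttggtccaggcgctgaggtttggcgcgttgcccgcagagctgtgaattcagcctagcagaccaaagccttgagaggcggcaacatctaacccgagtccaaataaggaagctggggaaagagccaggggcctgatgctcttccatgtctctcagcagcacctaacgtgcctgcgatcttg
Gja1, chr10:56377050-56377299, plus strand: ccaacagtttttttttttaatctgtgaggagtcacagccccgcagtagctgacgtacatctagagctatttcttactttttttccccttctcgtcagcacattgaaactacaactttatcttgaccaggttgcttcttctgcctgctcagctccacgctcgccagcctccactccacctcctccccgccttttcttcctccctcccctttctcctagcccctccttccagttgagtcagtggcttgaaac
The Slc1a3 window held 1 match, TATAAA on the opposite strand, at -161 to -156 from the start site. The windows of Hopx and Gja1 held 0 matches to the 4 motifs. Among 32851 windows of the same length in the RefSeq table, 12.4% held TATAAA, 12.3% TTGGCA, 21.6% TGGGAA and 10.7% ACAATG. The Gdf10 window was the richest in G and C of the members' windows, at 78.8%, against 44.8% in Slc1a3, 52.4% in Hopx and 50% in Gja1.

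Slc1a3 encodes the glutamate transporter that Bergmann glia express at a high level (ENSMUSG00000005360, chromosome 15 at 8634124 to 8710764 in mm10). Its levels were 1764, 1735 and 1742 CPM in WT replicates 1 to 3 and 1529, 1325 and 1593 CPM in KO replicates 1 to 3. The WT mice differed little from one another, and every KO mouse lay below them, replicate 2 farthest. The log2 fold change was -0.24 (SE 0.08, 95% interval -0.42 to -0.05, edgeR adjusted p = 0.41), which is 84.8% of WT. It was between -0.29 (without KO replicate 3) and -0.15 (without KO replicate 2) over 18 alternative analyses and passed in 0 of them.

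Slc1a2 encodes the other major glutamate transporter of astrocytes, which dominates in the forebrain (ENSMUSG00000005089, chromosome 2 at 102658659 to 102790784). The WT mice were at 998, 1000 and 956 CPM and the KO mice at 1120, 1045 and 1065 CPM. Here the KO mice all lay above the WT mice, with the KO female highest. KO over WT gave a log2 fold change of 0.13 (SE 0.06, 95% interval -0.02 to 0.27, edgeR adjusted p = 0.622).

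The pair of transporters can be set side by side per length (RPKM, CPM per kilobase of the exonic length in the table). The models of Slc1a2 (13133 bases) and Slc1a3 (8537 bases) are long, and either value is too low if part of its model is unused. Slc1a3 was at 205 ± 1.81 RPKM in WT and 174 ± 16.4 in KO, and Slc1a2 at 75.0 ± 1.91 and 82.0 ± 2.97 (SD, n = 3 each). Their sum was 283, 279 and 277 RPKM in the WT mice and 264, 235 and 268 RPKM in the KO mice. Slc1a3 made up 73.1, 72.7 and 73.7% of that sum in WT and 67.7, 66.1 and 69.7% in KO. That the groups lay apart in the share follows from their lying apart in both genes, in opposite directions. A ratio within a library does not depend on how libraries are scaled. Slc1a2 counts per Slc1a3 count were 0.564 ± 0.0140 in WT and 0.730 ± 0.0601 in KO (SD, n = 3 each). The share and this ratio restate the values of both genes, were formed after those were seen and have no test.

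Glul encodes glutamine synthetase, which turns glutamate taken up by astrocytes into glutamine (ENSMUSG00000026473, chromosome 1 at 153899944 to 153909723). Its levels were 1254, 1004 and 1185 CPM in WT and 1152, 1176 and 1233 CPM in KO. All KO mice lay within the range of the WT mice, whose lowest value was that of replicate 2. Between genotypes the log2 fold change was 0.05 (SE 0.09, 95% interval -0.15 to 0.26, edgeR adjusted p = 0.894). Oligodendrocyte markers, which were summed because oligodendrocytes also express Glul, were lowest in the same library: 4385 CPM in WT replicate 2, against 5560 and 5973 CPM in the other WT libraries and 5015 to 5106 CPM in KO. Of the 14 markers 0 passed in edgeR, and their part in the Glul values was not tested. A microRNA model inside the Glul span, Mir8114, held 2.29% as many counts as Glul.

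Of 17 tested genes of glutamate and GABA uptake and the glutamine cycle outside the members, 0 passed in edgeR, DESeq2 or limma-voom, with a median log2 fold change of -0.01. An unadjusted p under 0.05 in edgeR was found for 2, against 8.96% of all genes. One of those 2 was Slc1a6, the glutamate transporter of Purkinje cells, which averaged 210 ± 13.9 CPM in the WT mice and 174 ± 18.6 CPM in the KO mice (SD, n = 3 each), with each KO mouse below each WT mouse. Its log2 fold change of -0.27 (SE 0.09, edgeR adjusted p = 0.364) was close in size to that of Slc1a3. The median over 20 Purkinje cell markers, Slc1a6 among them, was farther from 0, at -0.54. Slc1a3 counts per Slc1a6 count were 8.36 ± 0.54 in WT and 8.54 ± 0.87 in KO, a ratio to 1 Purkinje cell gene that has no test. Slc38a3, a glutamine exporter of astrocytes, averaged 95.2 ± 8.84 CPM in the WT mice and 104 ± 19.0 CPM in the KO mice (log2 fold change 0.11, edgeR adjusted p = 0.815, SE 0.11). The value was 0.25 without WT replicate 1, a fit that compares the males alone, and -0.0011 without WT replicate 3.

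**Figure D2:**
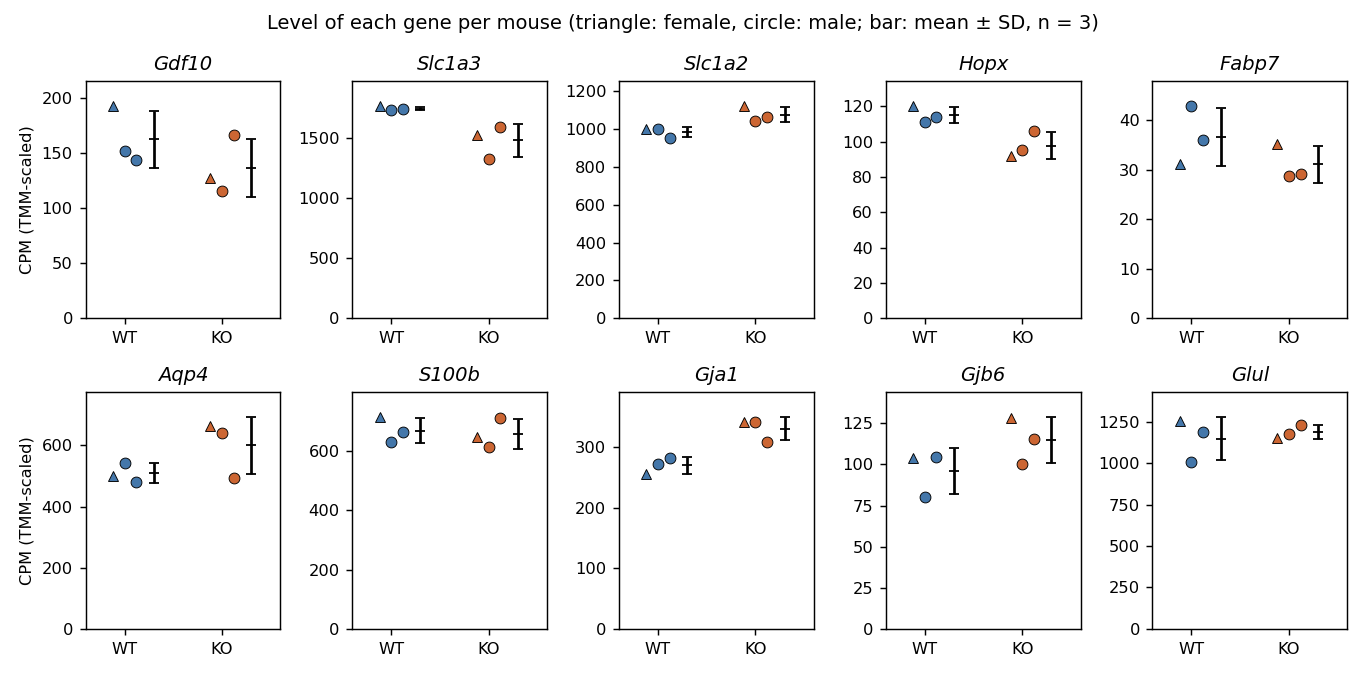
Level of each of the 10 genes in each mouse (y axis, CPM, from 0) by genotype, with triangles for females, circles for males and bars for the mean ± SD of 3 mice. The KO mice lie above all WT mice in Gja1 and Slc1a2 and below them in Slc1a3 and Hopx, and the genotypes overlap in the other 6 genes.

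Gdf10 encodes a secreted protein of the bone morphogenetic protein family that is used as a marker of Bergmann glia (ENSMUSG00000021943, chromosome 14 at 33923587 to 33935280). Its levels were 192, 151 and 144 CPM in WT and 127, 116 and 166 CPM in KO. KO replicate 3 lay above both male WT mice, so the groups overlapped. The log2 fold change was -0.24 (SE 0.15, 95% interval -0.59 to 0.11, edgeR adjusted p = 0.709). Leaving out 1 library moved this value: without KO replicate 3 it was -0.44 (SE 0.09, edgeR adjusted p = 0.038), and without KO replicate 2 it was -0.15. With sex in the model a single female is fitted exactly, so leaving out either female compares the males alone. That comparison gave -0.07 without WT replicate 1 (edgeR adjusted p = 0.959) and -0.08 without KO replicate 1. Between the females the log2 difference was -0.60 and between the male means -0.09, and the interaction of genotype and sex had an edgeR adjusted p of 0.404.

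Hopx encodes a small homeodomain protein without DNA binding of its own that is expressed in Bergmann glia (ENSMUSG00000059325, chromosome 5 at 77086988 to 77115121). The WT mice were at 120, 111 and 114 CPM and the KO mice at 91.9, 95.2 and 106 CPM. All KO mice lay below all WT mice, with KO replicate 3 nearest to them. Hopx had a log2 fold change of -0.23 (SE 0.08, 95% interval -0.41 to -0.05, edgeR adjusted p = 0.395).

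Fabp7 encodes the brain fatty acid-binding protein of radial glia, which Bergmann glia keep in the adult (ENSMUSG00000019874, chromosome 10 at 57784881 to 57788450). It was the lowest of the 10 genes, at 31.2, 42.8 and 36.0 CPM in WT and 35.3, 28.8 and 29.1 CPM in KO. The male KO mice were the lowest of the 6, and the KO female lay above the WT female. The log2 fold change was -0.24 (SE 0.14, 95% interval -0.56 to 0.08, edgeR adjusted p = 0.689). Leaving out 1 library moved it between -0.11 (without WT replicate 2) and -0.45 (without KO replicate 1), with -0.44 without WT replicate 1, and it passed in 0 of these fits. The fits without KO replicate 1 or WT replicate 1 both compare the males alone.

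Gja1 encodes the main connexin of astrocyte gap junctions (ENSMUSG00000050953, chromosome 10 at 56377300 to 56390419) and had the smallest p of the 10 genes. Its levels were 256, 273 and 282 CPM in WT and 342, 342 and 309 CPM in KO. Every KO mouse lay above every WT mouse, and KO replicate 3 was nearest to them. Its log2 fold change was 0.29 (SE 0.07, 95% interval 0.13 to 0.46), which is 123% of WT, at an edgeR adjusted p of 0.203. It passed in 1 of 18 alternatives, the fit with GC content and length trends of each library removed (0.28, SE 0.05, edgeR adjusted p = 0.0323). Over the 18 alternatives the adjusted p ran from 0.0323 to 0.85 and the log2 fold change from 0.22 to 0.37.

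Gjb6 encodes the other connexin of astrocytes (ENSMUSG00000040055, chromosome 14 at 57123303 to 57133611). Its levels were 104, 80.0 and 104 CPM in WT and 128, 100 and 115 CPM in KO. KO replicate 2 lay below 2 of the WT mice, so the groups overlapped. For Gjb6 the log2 fold change was 0.25 (SE 0.11, 95% interval 0.01 to 0.50, edgeR adjusted p = 0.546), with 0.16 without WT replicate 2 and 0.38 without WT replicate 3. Of 10 further connexin and pannexin genes tested, 0 passed in edgeR, DESeq2 or limma-voom, with a median log2 fold change of 0.00093. An unadjusted p under 0.05 in edgeR was found for 1, against 8.96% of all genes. It was Gjb2, a connexin gene of astrocytes and meninges (log2 fold change 0.39 with SE 0.13, edgeR adjusted p = 0.41). Gjb1, a connexin gene of oligodendrocytes, was at -0.25 (SE 0.14, edgeR adjusted p = 0.662).

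Aqp4 encodes the water channel of astrocyte endfeet (ENSMUSG00000024411, chromosome 18). Its levels were 501, 544 and 480 CPM in WT and 664, 642 and 494 CPM in KO. KO replicates 1 and 2 lay above the WT mice, and KO replicate 3 lay among them. The log2 fold change was 0.23 (SE 0.11, 95% interval -0.02 to 0.49, edgeR adjusted p = 0.615). It was 0.38 without KO replicate 3 (edgeR adjusted p = 0.0662) and 0.15 without KO replicate 2. It was 0.14 without KO replicate 1 and 0.15 without WT replicate 1, fits that both compare the males alone. KO replicate 3 stood apart in other genes as well. In that library Gdf10 was the highest of the KO mice and Gja1 the lowest.

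Among 15 further genes of potassium, water and ion handling at astrocyte endfeet, 0 passed in edgeR, DESeq2 or limma-voom, with a median log2 fold change of 0.03. An unadjusted p under 0.05 in edgeR was found for 2, against 8.96% of all genes. Those 2 were Kcnj10 and Kcnj16, which encode subunits of the glial inward rectifier potassium channel. Kcnj10 averaged 342 ± 23.7 CPM in the WT mice and 295 ± 43.0 CPM in the KO mice (log2 fold change -0.22 with SE 0.09, edgeR adjusted p = 0.515, SD over 3 mice), with KO replicate 1 inside the WT range and a value of -0.10 without KO replicate 3. Kcnj16 was at 44.6 ± 0.486 and 38.8 ± 4.29 CPM (-0.21, SE 0.09, edgeR adjusted p = 0.549), with every KO mouse below every WT mouse. Atp1b2, which encodes a subunit of the glial sodium pump, averaged 1291 ± 69.4 CPM in the WT mice and 1416 ± 38.3 CPM in the KO mice (0.14, SE 0.06, edgeR adjusted p = 0.591), with every KO mouse above every WT mouse. Within this list, too, values lay on both sides of 0, 10 above and 5 below.

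S100b encodes a calcium-binding protein of astrocytes and oligodendrocytes (ENSMUSG00000033208, chromosome 10 at 76253853 to 76261159). Its levels were 713, 629 and 661 CPM in WT and 645, 612 and 711 CPM in KO, with the groups overlapping over nearly their whole range. The log2 fold change was -0.02 (SE 0.08, 95% interval -0.21 to 0.16, edgeR adjusted p = 0.949). Its sign changed in 6 of the alternatives, some of which make nearly the same comparison. The gene overlaps Dip2a on the opposite strand, which held 15.5% as many counts, and no source states the strand setting of the counting.

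Per length, the order of the genes in WT was S100b (450 ± 28.4 RPKM), Glul (345 ± 39.0), Slc1a3, Aqp4 (100 ± 6.43), Gja1 (87.0 ± 4.29), Hopx (75.9 ± 2.98), Slc1a2, Gdf10 (64.8 ± 10.4), Gjb6 (42.3 ± 6.11) and Fabp7 (29.3 ± 4.66) (SD, n = 3 each). The ranges of neighbours in this order overlapped for Hopx with Slc1a2 and for Slc1a2 with Gdf10, and for no other pair. In KO, Slc1a2 (79.5 to 85.3 RPKM) stood above Hopx (60.6 to 70.2 RPKM) with ranges that did not overlap. The KO ranges of Aqp4 and Gja1, of Hopx and Gdf10, and of Gdf10 and Gjb6 overlapped.

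Across the 6 libraries, as a description, Pearson r of log2 CPM was 0.77 to 0.85 among Gdf10, Slc1a3 and Hopx (3 pairs) and 0.71 to 0.78 among Gja1, Aqp4 and Slc1a2 (3 pairs). Between these sets it was -0.97 to -0.37 over 9 pairs, with Hopx and Gja1 the lowest. Fabp7 and Gjb6 followed this pattern in part. Fabp7 had r of 0.54 with Slc1a3 and -0.36 with Gja1, but -0.02 with Gdf10 and -0.04 with Aqp4. Gjb6 had 0.64 with Slc1a2 and 0.53 with Gja1, but 0.23 with Aqp4 and -0.12 with Gdf10. S100b had 0.86 with Gdf10, 0.54 with Slc1a3 and -0.70 with Aqp4, but -0.09 with Slc1a2. The sets were formed after the values were seen, all points share library and scaling, and the genotype difference itself enters r. With each genotype's mean removed, r was 0.47 to 0.86 in the first set, -0.13 to 0.67 in the second and -0.98 to 0.46 between them. Slc1a2 then had r of 0.46 with Slc1a3, 0.22 with Gdf10 and -0.29 with Hopx. KO replicate 3 was the KO mouse nearest to WT in Gdf10, Slc1a3, Hopx, Gja1 and Aqp4. Over all 45 pairs of members the median r was -0.04.

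**Figure D3:**
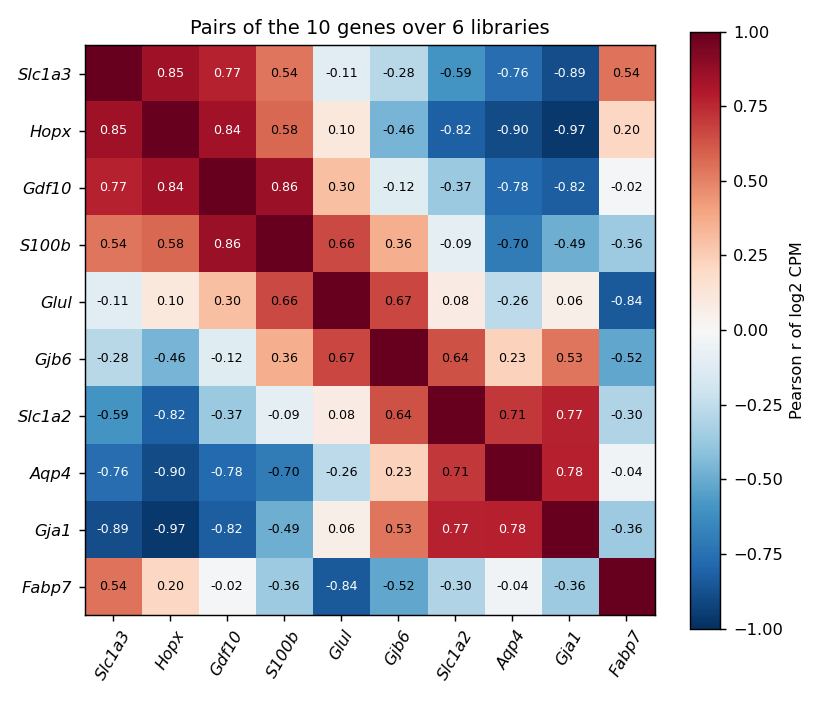
Pearson r of log2 CPM for each pair of the 10 genes over 6 libraries, red for positive and blue for negative values. Slc1a3, Hopx and Gdf10 correlate positively with one another (0.77 to 0.85) and negatively with Slc1a2, Aqp4 and Gja1. The genotype difference enters these values. With each genotype's mean removed, r between the sets ran from -0.98 to 0.46.

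The mean z-score of the members varied from -0.39 to 0.26 over the libraries. The 5 genes outside the list with at least 10 CPM whose pattern was most like that mean were Zfand2a (r = 0.996), Rabepk (0.986), Kansl3 (0.978), Mid1 (0.977) and Mgme1 (0.976), over 6 libraries and 10404 genes compared. The mean pools members whose median r with one another was -0.04, so it is not a pattern that they share. Picking the highest of 10404 genes over 6 libraries by itself favours high r, and no test was made.

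Ratios to Slc1a3 within a library restate these differences in a form that needs no scaling. Gja1 counts per Slc1a3 count were 0.145, 0.157 and 0.162 in WT and 0.224, 0.258 and 0.194 in KO. That each KO mouse lay above each WT mouse follows from the groups lying apart in both genes. Aqp4 counts per Slc1a3 count were 0.284, 0.314 and 0.276 in WT and 0.435, 0.485 and 0.310 in KO. KO replicate 3 was within the WT range in the second ratio. Both ratios were chosen after the values were seen and are given without a test.

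**Figure D4:**
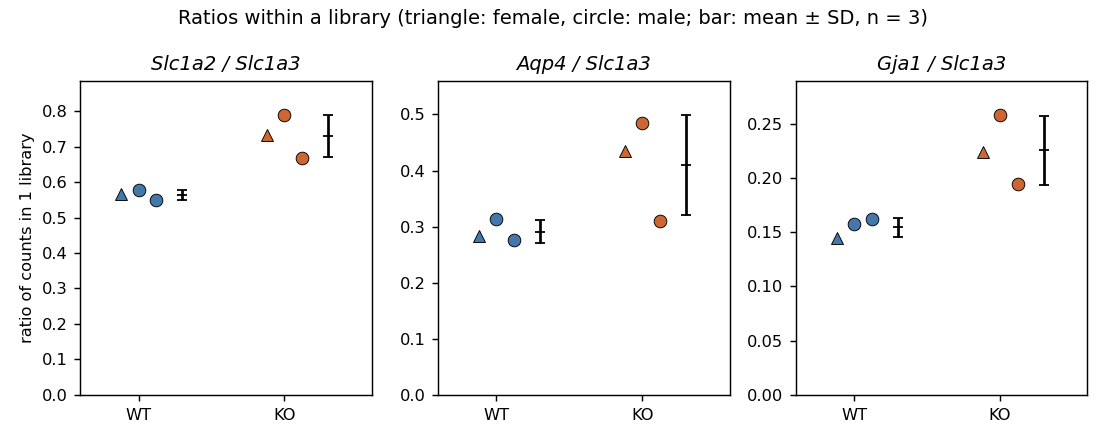
Ratio of the counts of Slc1a2, Aqp4 and Gja1 to those of Slc1a3 in the same library (y axis, from 0) by genotype, with triangles for females, circles for males and bars for the mean ± SD of 3 mice. The KO mice lie above all WT mice for Slc1a2 and Gja1, which follows from the groups lying apart in these genes and, oppositely, in Slc1a3. For Aqp4, KO replicate 3 (0.310) lies among the WT mice.

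Other genes named for Bergmann glia lay mostly below 0. Of 21 tested, 18 had negative and 3 positive log2 fold changes, with a median of -0.13 (-0.07 without KO replicate 3 and -0.19 without KO replicate 2), beside 0.00029 over all genes. In 7 of the 21 each KO mouse lay below each WT mouse, where 6.35% of all genes tested did. An unadjusted p under 0.05 was found for 6 of the 21, against 8.96% of all genes. Past the threshold, where 0.283% of all genes tested lay, was 1 gene, Dner. It fell from 792 ± 20.1 to 586 ± 26.9 CPM (SD, n = 3 each; log2 fold change -0.44, SE 0.07, edgeR adjusted p = 0.0483). Dner is a ligand that Purkinje cells themselves express and that acts on Bergmann glia, and Gria1 in the same list is also expressed in neurons. The call of Dner was lost without WT replicate 2, WT replicate 3 or KO replicate 2. It was also lost with a term for the title code TM2, which beside sex sets KO replicate 2 apart. Etv4, a transcription factor gene of growth factor signalling, averaged 12.3 ± 0.637 CPM in the WT mice and 9.38 ± 0.575 CPM in the KO mice (log2 fold change -0.39 with SE 0.11, edgeR adjusted p = 0.298), and A2m, an astrocyte protease inhibitor gene, at 121 ± 9.65 and 143 ± 17.6 CPM (0.23, SE 0.10, edgeR adjusted p = 0.533). Of the genes outside the 10 that did not pass, all but Slc1a6, Slc38a3, Kcnj10, Aldh1l1, Aldoc, Ttr and the 5 most like the members' mean were named after their values were seen.

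Of 36 further astrocyte genes tested, 0 passed in edgeR or limma-voom. In DESeq2 2 passed, both lower in KO, where DESeq2 called 232 of all 16934 genes, 141 of them lower. An unadjusted p under 0.05 in edgeR was found for 11 of the 36, against 8.96% of all genes. The median log2 fold change was 0.07, with 22 above 0 and 14 below. Aldh1l1, a folate enzyme gene used as a marker of all astrocytes, averaged 94.3 ± 8.30 CPM in the WT mice and 84.4 ± 9.57 CPM in the KO mice (-0.16, SE 0.10, edgeR adjusted p = 0.717), and Aldoc, which Purkinje cells of the zebrin-positive stripes also express, at 2329 ± 99.9 and 2223 ± 187 CPM (-0.07, SE 0.08, edgeR adjusted p = 0.852). Without WT replicate 1 these values were 0.0032 for Aldh1l1 and 0.0065 for Aldoc, and without KO replicate 1 they were -0.0045 and -0.0019. Both of these fits compare the males alone. The smallest p belonged to Chrdl1, which encodes a secreted antagonist of bone morphogenetic proteins, which averaged 12.3 ± 0.761 CPM in the WT mice and 7.31 ± 1.66 CPM in the KO mice (-0.76, SE 0.13, edgeR adjusted p = 0.0718). Prodh, a proline-degrading enzyme gene, was at 0.37 (SE 0.11, edgeR adjusted p = 0.316). In this list, as among the 10 genes, the genes whose genotypes lay apart were found on both sides, 5 of 36 with KO above WT (7.77% of all genes tested) and 4 with KO below (6.35%).

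Genes of reactive astrocytes were on the higher side in KO, 17 of 21 tested above 0. Gfap, which encodes the main intermediate filament protein of astrocytes, averaged 195 ± 43.5 CPM in the WT mice and rose to 358 ± 23.4 CPM in the KO mice (log2 fold change 0.90, SE 0.10, 95% interval 0.66 to 1.14, edgeR adjusted p = 0.0214), an interval above those of all 10 members. The log2 fold change was 0.81 without WT replicate 2 and 0.89 without WT replicate 3, where the edgeR adjusted p was 0.154 and 0.223. Serpina3n and Timp1, both protease inhibitor genes, rose too (edgeR adjusted p = 0.0134 and 0.044), and the other 18 of 21 tested did not pass. Of all genes tested 0.136% rose past the threshold. The reactive list's median was 0.28, with 0.44 without KO replicate 3 and 0.54 without WT replicate 2. It was 0.16 in the males alone and 0.16 without KO replicate 1, which makes the same comparison. Among Purkinje cell markers 8 of 20 fell and 0 rose, with a median of -0.54, where 0.148% of all genes tested fell. The 8 included Itpr1, the inositol trisphosphate receptor gene, from 3774 ± 83.2 to 2406 ± 120 CPM, Arhgef33, Ebf2 and Car8. Without WT replicate 2 or WT replicate 3, 0 Purkinje markers passed, and 1 passed without KO replicate 2, with list medians of -0.57, -0.48 and -0.51. In each of the fits without WT replicate 2 or WT replicate 3, 1 gene of the whole table passed, and 16 passed without KO replicate 2. With a term for the title code TM2 beside sex, chosen after the data were seen, 2 genes of the whole table passed. Both females carry this code, and KO replicate 2 is the only male with it. Beside sex the term therefore fits KO replicate 2 alone, and the genotype difference comes from the other libraries. In that fit 0 reactive astrocyte, Purkinje cell, microglia or other Bergmann glia genes passed, with medians of 0.27, -0.51, 0.69 and -0.19, and Gfap was at 0.81 (edgeR adjusted p = 0.154).

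Summed over the list, Purkinje markers were at 12262 to 13326 CPM in WT and 8258 to 9416 CPM in KO. Microglia markers summed to 279 to 343 CPM in WT and 432 to 504 CPM in KO. Of 15 tested 3 rose, Fcrls and Ctss among them, where 0.136% of all genes tested did. Of these markers 0 passed without WT replicate 2 or WT replicate 3, 1 without KO replicate 2, 6 without KO replicate 3 and 7 without WT replicate 1 or KO replicate 1. Leaving out either female compares the males alone. Sums of granule cell markers (7917 to 8441 CPM in WT, 8285 to 8624 in KO), of endothelial and mural markers (436 to 526 and 450 to 522) and of oligodendrocyte precursor markers (223 to 241 and 232 to 243) overlapped between the genotypes. Choroid plexus and ependymal markers summed to 99.8 to 4806 CPM in WT and 1658 to 5164 CPM in KO, and meningeal fibroblast markers to 102 to 293 and 172 to 293 CPM. The part of these cell types in the values of the 10 genes was not tested. In a fit that replaced sex by a choroid plexus score, the log2 fold changes were -0.22 for Slc1a3, -0.22 for Hopx, 0.27 for Gja1 and 0.13 for Slc1a2.

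**Figure D5:**
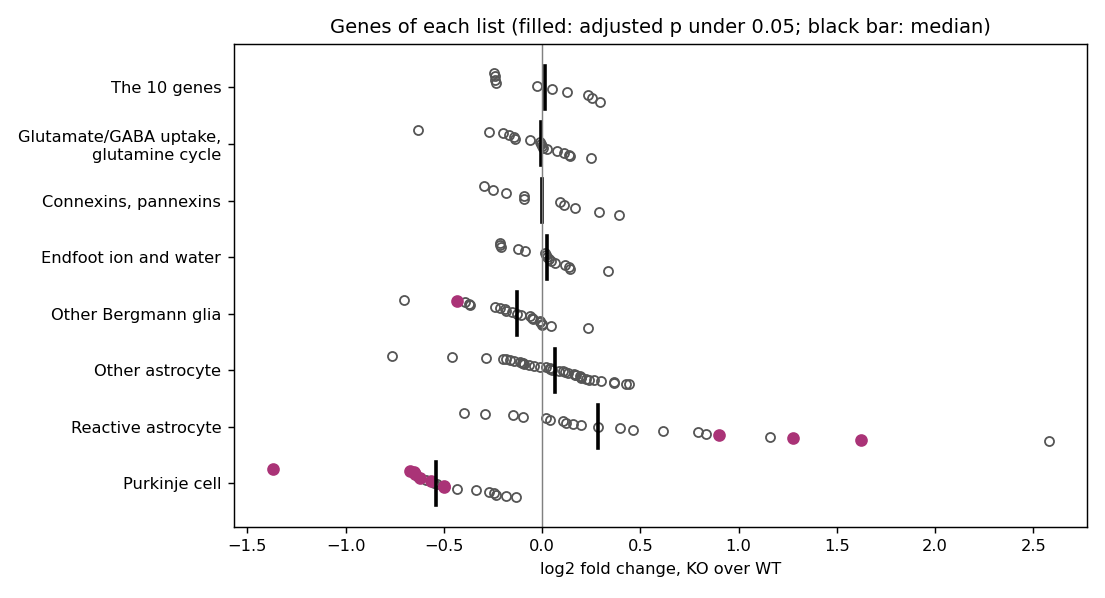
Log2 fold change, KO over WT (x axis), of every tested gene of 8 lists (rows), with filled points for genes at an adjusted p under 0.05 in edgeR and a black bar for the list's median. The 10 genes (median 0.01) spread to both sides of 0 with 0 filled points, while reactive astrocyte genes have 3 filled points above 0 and Purkinje cell genes 8 below.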

How the data were processed

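A single matrix of raw counts, in whole numbers per gene and mouse, was deposited with coordinates, exonic length and symbol for each gene, per the file headers. STAR was used with mm10, per the submitters' processing notes. No source names the counting tool, the strand setting or the annotation, so reads of overlapping genes cannot be told apart. All 37 mitochondrial gene models held 0 counts. Replicates are mice numbered in order of deposit, and no 2 libraries of a genotype agreed within sampling noise (a ratio of chi-square to degrees of freedom of 7.45 to 31.1).

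Testing used edgeR 4.0.16 (R 4.3.3): filterByExpr with minimum count 10 and minimum total 15 kept 16934 genes, libraries were scaled by TMM, sex and genotype were the model's terms (leaving 3 residual degrees of freedom), and the two-sided robust quasi-likelihood F test (legacy version) was adjusted by Benjamini-Hochberg over all of them. Calls needed an adjusted p under 0.05. Fold changes are log2 of KO over WT, their SE is their size divided by the square root of F, and intervals are at 95%. Printed CPM carry the TMM scaling. Correlations used log2 CPM with a prior count of 2. Counting error of the members was at most 3.53% per library.

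The fit was repeated with RLE size factors, without the filter, with genes averaging 1 CPM or more, in DESeq2 1.42.0 and limma-voom (limma 3.58.1), in the newer quasi-likelihood version, without sex, in males, with GC content and length offsets (loess span 0.5, from GENCODE M21, which gave a GC content for 99.0% of tested genes), with a choroid plexus score replacing sex, leaving out each library, and at a threshold of 0.10. Member levels were also computed without TMM. A term for the title code TM2 beside sex was added after the data were seen. Beside sex it marks KO replicate 2 alone, so its fold changes are nearly those of the fit without that library. Because each genotype had 1 female, the fits without WT replicate 1 or KO replicate 1 compare the males alone, as the fit in males does. The edgeR, DESeq2 and limma-voom fits of KO against WT were tested on simulated data.

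Members and gene lists were chosen with earlier results of these data known, and 237 of 239 list entries were in the table. The rule for named genes took the members, Tmem106b, up to 4 called genes per list, 9 anchor genes and the 5 genes most like the members' mean. Promoter windows came from RefSeq, where 9 of 10 members matched. Some genes of the lists are not reported here by name.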

Additional observations from a re-analysis of the deposited data

How the results depend on the processing

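Of 18 alternatives, 16 called 0 of the 10 members. With GC content and length offsets 1 member passed (Gja1), and leaving out KO replicate 3 also gave 1 (Gdf10, log2 fold change -0.44). Over the fits that leave out 1 library, the number of members called ran from 0 to 1 and their median log2 fold change from -0.052 to 0.072. In males only that median was 0.064. The causes were not tested. Of 180 member fold changes under an alternative, 171 kept their sign and their side of the threshold. The sign of S100b turned with the choroid plexus score (0.0042), in the males alone (0.027) and with a term for the title code TM2 (0.019), and leaving out 1 library moved it from -0.086 to 0.035, above 0 when the library left out was WT replicate 1, KO replicate 1 or KO replicate 2. For Glul the same fits ran from -0.041, when WT replicate 2 was left out, to 0.137. The count of all genes past the threshold, 48, was 75 with RLE size factors, 199 without a filter, 76 with a minimum mean of 1 CPM, 232 in DESeq2, 111 in males only, 249 with GC content and length offsets, 109 at a threshold of 0.10, 2 with the term for the title code (chosen after seeing the data) and 1 to 156 over the fits that leave out 1 library. All 20 member means moved by less than 1 SD without TMM. No paired analysis was possible because the labels number no replicates, and the title code shared by 1 WT and 2 KO libraries forms no set of pairs. Each member had at least 804 counts per library, so counting error was at most 3.53%.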

Other observations

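Fabp7 had the smallest p of the 10 genes in the test of genotype by sex. Its log2 difference, KO minus WT, was 0.18 between the females (1 mouse of each genotype) and -0.44 between the male means (2 mice of each). The interaction was 0.62 (SE 0.18, unadjusted p = 0.00659, edgeR adjusted p = 0.124), and 0 of the 10 members passed this test. In the males alone the log2 fold change of Fabp7 was -0.45 (edgeR adjusted p = 0.119). Chosen after their values were seen, metallothionein genes, which respond to metals and glucocorticoids, were highest in KO replicate 3 of the 6 libraries: Mt1 was at 172 CPM there, against 65.8 to 123 CPM in the others, and Mt2 at 169 CPM, against 55.0 to 107 CPM. Apoe, an apolipoprotein gene listed here with the further astrocyte genes, was also highest in that library, at 951 CPM, against 626 to 843 CPM in the others. The sum of microglia markers was highest there too, at 504 CPM, and which cells gave the Apoe value was not tested.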
